A study of Mus musculus with 7 samples.

Results

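The cardiac stress and fetal program described here is a set of 10 genes chosen by name from the 53460 genes of the deposited table: Nppa, Nppb, Myh6, Myh7, Acta1, Ankrd1, Fhl1, Xirp2, Rcan1 and Gdf15. RNA sequencing was carried out on heart tissue of C57BL/6 mice (C57BL/6Ncr in the treatment notes, and male C57BL/6NCrSlc mice by the study's methods) that had undergone TAC, transverse aortic constriction, in which a band on the aortic arch loads the left ventricle with pressure. The TAC group had 3 libraries and received no drug, and the TAC + EMPA group had 4 libraries from mice that were given empagliflozin, an SGLT2 inhibitor, in chow for 5 days beginning 2 weeks after TAC. Mice of both groups underwent TAC, and the labels place the operation at 12 weeks and sampling at 14 weeks of age, while the study's text gives a younger age at operation. Sham-operated hearts were not analysed here, so the comparison is of loaded hearts with and without the drug and holds no unloaded baseline. The values are FPKM, fragments scaled to transcript length and library size, with 1 value for each gene and library, and the study's text counts n in mice.

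When the adult ventricle is loaded, cardiomyocytes raise transcripts that the fetal ventricle uses, among them the natriuretic peptides, the beta isoform of myosin heavy chain and the skeletal isoform of alpha actin. In the mouse this goes with a fall of the adult alpha myosin heavy chain. Stretch-responsive proteins of the sarcomere, feedback regulators of calcineurin and secreted stress cytokines move with this program, and their messages serve as readouts of the load felt by the myocardium.

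All 10 members were among the 12391 genes tested, whose FPKM averaged 1 or more. By mean FPKM, which is scaled to transcript length, Myh6 was the most abundant member (5855 over the libraries with an estimate), followed by Acta1 (3199), Ankrd1 (1579), Nppa (818), Nppb (392), Myh7 (373), Xirp2 (97.4), Fhl1 (83.9), Rcan1 (35.1) and Gdf15 (1.91). Nppb and Myh7 were neighbours in this order with ranges over the libraries that overlapped almost throughout, from 230 to 658 and from 172 to 625. The ranges of Xirp2 and Fhl1 also overlapped, from 51.9 to 139 and from 50.9 to 126. The Myh6 row carries the status HIDATA, which marks genes with too many fragments at the locus to process, and Myh6 is listed at 0 in TAC + EMPA replicate 1. That 0 was treated as a lost estimate and not as absence.

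Nppa, Myh7 and Acta1 were picked for their ratios below to Nppb, Myh6 and Actc1, and Xirp2 for the smallest p-value. The promoter sequences of these 4 members are shown. Each is the 250 bases before the RefSeq start on GRCm38.p6, 5′ to 3′ on the strand of the gene, with capitals where a searched motif matched on either strand. The motifs were the GATA site (GATA preceded by A or T and followed by A or G), the MCAT element (CATTCC), the NKX element (TNAAGTG), the TATA box (TATAAA) and the CArG box. The windows lie at chr4:148000472-148000721 on the plus strand (Nppa), chr14:54994627-54994876 on the minus strand (Myh7, the upstream of 2 RefSeq starts), chr8:123894776-123895025 on the minus strand (Acta1) and chr2:67445752-67446001 on the plus strand (Xirp2).
Nppa: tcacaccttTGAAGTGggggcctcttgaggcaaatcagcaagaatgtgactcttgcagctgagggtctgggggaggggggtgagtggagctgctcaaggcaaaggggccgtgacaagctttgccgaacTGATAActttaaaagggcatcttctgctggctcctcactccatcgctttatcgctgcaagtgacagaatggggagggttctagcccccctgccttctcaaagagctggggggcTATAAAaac
Myh7: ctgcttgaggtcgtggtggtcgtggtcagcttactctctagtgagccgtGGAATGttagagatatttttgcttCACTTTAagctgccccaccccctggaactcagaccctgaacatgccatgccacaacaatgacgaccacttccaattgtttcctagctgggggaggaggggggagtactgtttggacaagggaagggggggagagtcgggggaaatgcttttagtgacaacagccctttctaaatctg
Acta1: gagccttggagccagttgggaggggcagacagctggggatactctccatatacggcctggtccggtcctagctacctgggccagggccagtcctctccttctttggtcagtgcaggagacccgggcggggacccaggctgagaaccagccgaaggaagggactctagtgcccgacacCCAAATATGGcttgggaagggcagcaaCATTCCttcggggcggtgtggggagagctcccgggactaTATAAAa
Xirp2: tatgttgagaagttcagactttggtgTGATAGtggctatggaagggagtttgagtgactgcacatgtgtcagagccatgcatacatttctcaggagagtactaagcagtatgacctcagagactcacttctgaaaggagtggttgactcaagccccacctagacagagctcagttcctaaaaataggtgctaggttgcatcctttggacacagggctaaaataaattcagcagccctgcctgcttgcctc

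The Nppa window held a NKX element, a GATA site and a TATA box, and the Xirp2 window a GATA site. The Acta1 window held a CArG box, a MCAT element and a TATA box. The printed Myh7 window held a MCAT element and a NKX element, and that of the downstream Myh7 start none of the motifs. The Nppb window, not printed because the GENCODE annotation places part of it in an exon, held 2 GATA sites 95 and 84 bases before the RefSeq start, a MCAT element and a TATA box. Of the 14 RefSeq windows of the 10 members, 6 held a GATA site and 6 a MCAT element. A TATA box occurred in 4 of the 14 windows, a NKX element in 2 and a CArG box in 2. Among all 32841 RefSeq windows of the same length the shares were 26.5% for GATA, 12.6% for MCAT, 12.4% for TATA, 10.1% for NKX and 1.47% for CArG. A match of letters describes the sequence only.

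The members' own question is whether the stress transcripts of loaded hearts differed after 5 days of empagliflozin. No member passed the threshold over all genes (limma, Benjamini-Hochberg adjusted p under 0.05), and 0% of the 12391 genes did. Of the 10 members, 7 had a positive and 3 a negative log2 fold change, with a median of 0.25 on the log2(FPKM + 1) scale beside 0.03 over all genes tested. At an unadjusted p under 0.05, 1 member (Xirp2) was higher, where 19.0% of all genes were, and 0 members were lower, where 14.7% of all genes were. The FPKM ranges of the 2 groups were apart for 0 of the 10 members, and for 22.3% of all genes.

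**Figure D1:**
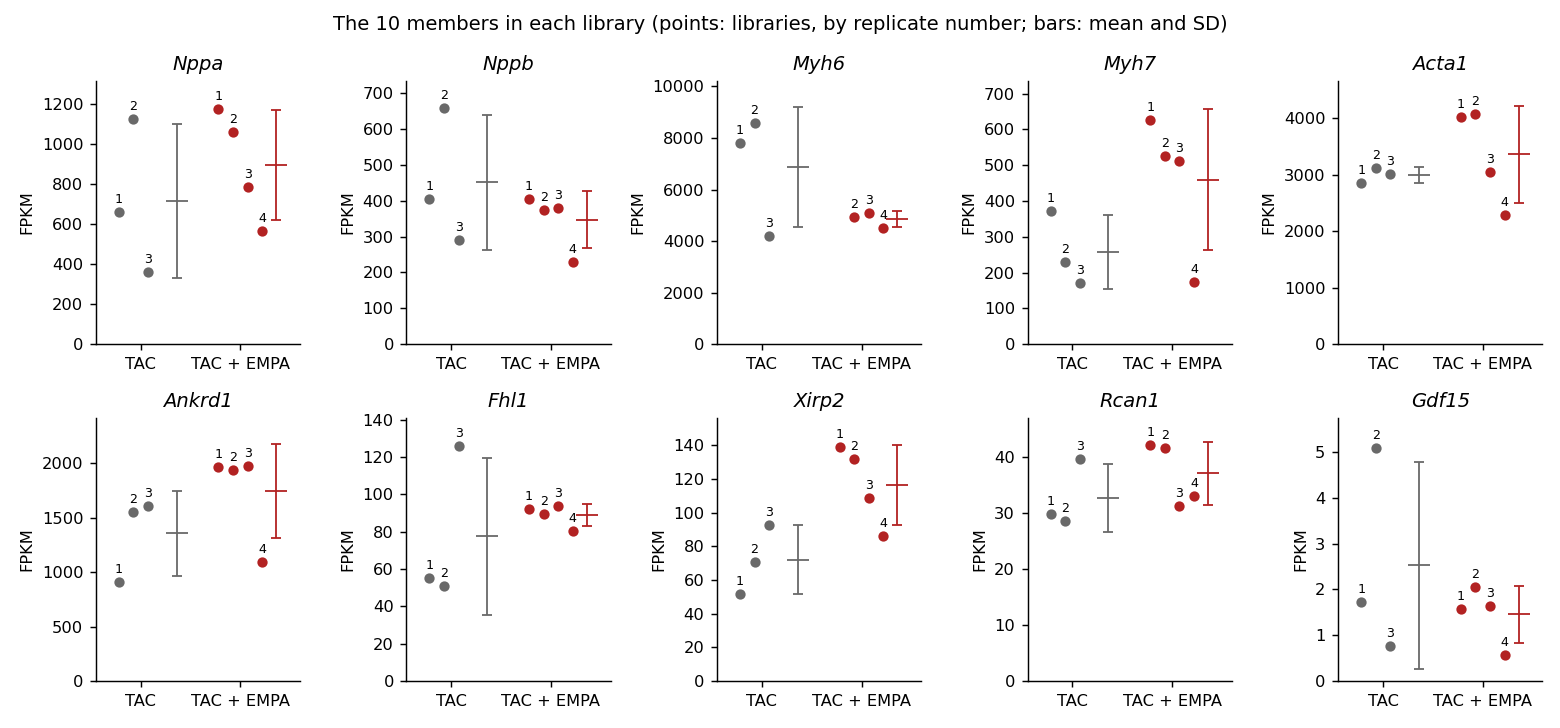
FPKM of the 10 members, 1 panel for each gene with its own linear axis from 0, in the 3 TAC and 4 TAC + EMPA libraries (points, marked with the replicate number; bars show mean and SD). The groups overlap in every panel, and TAC + EMPA replicate 4 is the lowest TAC + EMPA point in all panels but that of Rcan1; the Myh6 value lost in TAC + EMPA replicate 1 is not drawn.

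Nppa encodes the precursor of atrial natriuretic peptide, which in the healthy adult is made mainly by the atria and is switched on in the loaded ventricle (Ensembl ENSMUSG00000041616, chr4:148000722-148002079, GENCODE annotation of GRCm38). Its FPKM was 659, 1124 and 360 in TAC replicates 1 to 3 and 1174, 1061, 783 and 563 in TAC + EMPA replicates 1 to 4. TAC replicate 2 stood within the upper TAC + EMPA values, TAC replicate 3 was the lowest of all, and the groups overlapped. Mean FPKM was 714 ± 385 (SD, n = 3) in TAC and 895 ± 276 (SD, n = 4) in TAC + EMPA. The log2 fold change was 0.42 with a standard error of 0.41 (limma adjusted p = 0.469, and p = 0.457 in the exact two-sided permutation test over 35 splits). With 1 library left out it ran from 0.00 without TAC replicate 3 to 0.82 without TAC replicate 2.

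Nppb encodes the precursor of B-type natriuretic peptide, the ventricular partner of Nppa, and its RefSeq start lies 14822 bases before that of Nppa on the same strand (GENCODE position chr4:147985788-147987205). Nppb had an FPKM of 405, 658 and 291 in TAC replicates 1 to 3 and of 405, 374, 380 and 230 in TAC + EMPA replicates 1 to 4. The highest value was in TAC replicate 2 and the lowest in TAC + EMPA replicate 4, and 3 of the 4 TAC + EMPA libraries lay between TAC replicates 1 and 3. The group means were 451 ± 188 (SD, n = 3) and 347 ± 79.2 (SD, n = 4), and the log2 fold change was -0.33 with a standard error of 0.31 (limma adjusted p = 0.452, exact permutation p = 0.429). Without TAC replicate 2 it was -0.02, and without TAC replicate 3 it was -0.60 (limma adjusted p = 0.121).

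While neither peptide gene separated the groups by its own level, the ratio of Nppa to Nppb within each library did. The ratio was 1.63, 1.71 and 1.24 in TAC replicates 1 to 3 and 2.90, 2.83, 2.06 and 2.45 in TAC + EMPA replicates 1 to 4. The lowest of the TAC + EMPA ratios exceeded the highest of the TAC ratios. The mean log2 ratio was 0.59 ± 0.25 (SD, n = 3) in TAC and 1.34 ± 0.23 (SD, n = 4) in TAC + EMPA, a difference of 0.75 that stayed between 0.60 and 0.85 when each library was left out in turn. This ratio was looked at after its values were seen, so no test is given. Among all genes tested, 22.3% had groups apart by their own level, and no such share was computed for ratios of gene pairs. Both genes are read per transcript length within a library, which takes out scaling between libraries.

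Nppa overlaps an antisense gene, Gm13054, over 532 exon bases. The libraries came from a stranded kit, but strand use in the counting is not given in the sources used here, so fragments of the pair cannot be told apart. Gm13054 had an FPKM of 777, 1432 and 367 in TAC replicates 1 to 3 and of 1160, 986, 746 and 562 in TAC + EMPA replicates 1 to 4. Relative to Nppa, Gm13054 was at 1.18, 1.27 and 1.02 in TAC and at 0.988, 0.929, 0.952 and 0.999 in TAC + EMPA, so all 4 TAC + EMPA libraries were below the 3 TAC libraries here too. Adding both genes by length and dividing by Nppb gave 3.45, 3.77 and 2.44 in TAC and 5.62, 5.33, 3.92 and 4.76 in TAC + EMPA. The groups were still apart, with a difference of 0.62 in mean log2 ratio. This sum was computed after the overlap was seen.

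**Figure D2:**
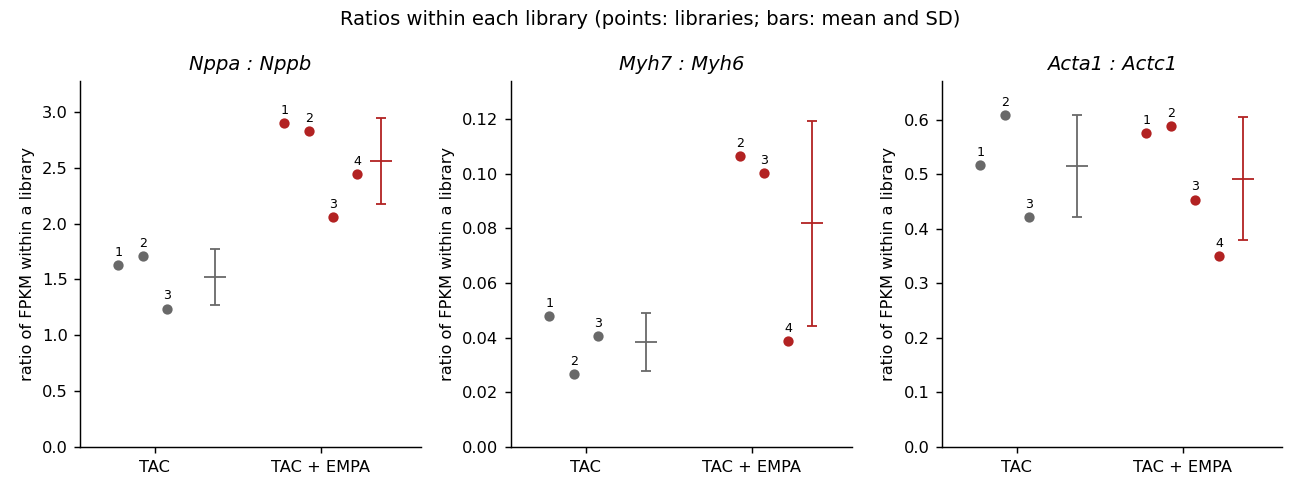
Ratios of FPKM within each library for Nppa to Nppb, Myh7 to Myh6 and Acta1 to Actc1 (points, marked with the replicate number; bars show mean and SD; linear axes from 0). The Nppa to Nppb ratio lies at 1.24 to 1.71 in TAC and at 2.06 to 2.90 in TAC + EMPA, while the other 2 ratios overlap between the groups, and Myh7 to Myh6 has no value in TAC + EMPA replicate 1.

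Because Nppa is abundant in atria, atrial markers were read beside it. Myl7, the atrial myosin light chain, was at 0 to 0.86 FPKM over the 7 libraries, and Bmp10 and Sln were at or below 0.0994 FPKM. The summed FPKM of the 10 atrial markers was 36.2 to 42.4 in TAC and 37.8 to 47.5 in TAC + EMPA, and of the 6 tested, 1 passed an unadjusted p of 0.05 upward and 1 downward. Myl4, another atrial light chain, was at 2.01 to 4.11 FPKM. The groups were apart for 3 of the 6 tested, Tbx5 (higher) and Nr2f1 and Nr2f2 (lower in TAC + EMPA), beside 22.3% of all genes. The part of atrial tissue in the Nppa values was not tested.

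Myosin heavy chain isoforms set the speed of the ventricular sarcomere, with the fast alpha chain (Myh6) in the adult mouse and the slow beta chain (Myh7) in the fetal or overloaded ventricle. Myh6 (chr14:54941921-54966927) had an FPKM of 7809, 8589 and 4213 in TAC replicates 1 to 3, and of 4925, 5098 and 4498 in TAC + EMPA replicates 2 to 4. TAC replicates 1 and 2 were the highest libraries, and TAC replicate 3 was below all 3 TAC + EMPA libraries with an estimate. The means were 6870 ± 2334 (SD, n = 3) and 4840 ± 309 (SD, n = 3). With the lost estimate set to missing, the log2 fold change was -0.44 with a standard error of 0.27 (limma adjusted p = 0.273), and the exact permutation p over 20 splits was 0.4, where 0.1 is the smallest that 3 against 3 libraries allow. When the 0 was kept in the fit, the adjusted p was 0.409 (limma), and the fold change cannot be read.

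Myh7 (chr14:54970684-54994626) lies upstream of Myh6 on the same strand. Its FPKM was 373, 230 and 172 in TAC replicates 1 to 3 and 625, 525, 512 and 174 in TAC + EMPA replicates 1 to 4. In 3 TAC + EMPA libraries Myh7 was above every TAC library, and in TAC + EMPA replicate 4 it was at the level of the lowest TAC library. The means of 258 ± 104 (SD, n = 3) and 459 ± 197 (SD, n = 4) gave a log2 fold change of 0.75 with a standard error of 0.47 (limma adjusted p = 0.277, exact permutation p = 0.2). With 1 library left out the log2 fold change ran from 0.50 without TAC replicate 3 (limma adjusted p = 0.465) to 1.17 without TAC + EMPA replicate 4 (limma adjusted p = 0.186).

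The Myh7 to Myh6 ratio was 0.0478, 0.0267 and 0.0407 in TAC replicates 1 to 3 and 0.1065, 0.1004 and 0.0386 in TAC + EMPA replicates 2 to 4. The alpha isoform was thus the more abundant message in every library with both estimates. TAC + EMPA replicates 2 and 3 were above all TAC libraries, and replicate 4 was among them. The mean log2 ratio was higher by 0.995 in TAC + EMPA (SD 0.43 in TAC and 0.82 in TAC + EMPA, n = 3 each). The exact permutation p was 0.3, where 0.1 is the smallest that 3 against 3 libraries allow, so the test could not reach 0.05. Leaving out TAC + EMPA replicate 4 raised the difference to 1.47.

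Myh7 shares exon bases with antisense genes, among them Mhrt, a heart long noncoding RNA transcribed from the Myh7 locus, over 484 bases, and Gm31251 over 523 bases. Mhrt was at 175, 192 and 88.4 FPKM in TAC replicates 1 to 3 and at 88.5 to 90.5 FPKM in the TAC + EMPA libraries, an order unlike that of Myh7. Gm31251 was at 26.5, 22.3 and 25.2 FPKM in TAC and at 64.9, 56.4, 61.5 and 28.8 FPKM in TAC + EMPA replicates 1 to 4. As with Myh7, Gm31251 was high in TAC + EMPA replicates 1 to 3 and low in replicate 4. Values of Myh7 and of these antisense genes are uncertain to the extent that fragments were shared.

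Acta1 encodes skeletal alpha actin, which the fetal and the overloaded ventricle express beside the cardiac isoform Actc1 (annotated at chr8:123891769-123894751). Acta1 was at 2844, 3117 and 3010 FPKM in TAC replicates 1 to 3 and at 4023, 4070, 3049 and 2282 FPKM in TAC + EMPA replicates 1 to 4. The 3 TAC libraries lay close together, with TAC + EMPA replicates 1 and 2 above them and replicate 4 below. Means were 2990 ± 138 (SD, n = 3) and 3356 ± 857 (SD, n = 4), and the log2 fold change was 0.13 with a standard error of 0.21 (limma adjusted p = 0.664, exact permutation p = 0.6). The deposited row gives Acta1 a merged locus far wider than the gene, chr8:119910360-124345724, and the FPKM may not be of Acta1 alone. The Actc1 row has the status HIDATA, with an estimate above 0 in every library. The Acta1 to Actc1 ratio was 0.516, 0.608 and 0.422 in TAC and 0.576, 0.588, 0.454 and 0.349 in TAC + EMPA. The difference in mean log2 ratio was -0.08 (exact permutation p = 0.743), and its sign turned to 0.04 without TAC replicate 2 and to 0.07 without TAC + EMPA replicate 4.

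Among the stretch-responsive members, Xirp2 came nearest to a difference. Xirp2 encodes an actin-binding Xin-repeat protein of the intercalated disc (chr2:67446002-67526614). Its FPKM was 51.9, 70.8 and 92.9 in TAC replicates 1 to 3 and 139, 132, 109 and 86.1 in TAC + EMPA replicates 1 to 4. TAC + EMPA replicates 1 to 3 were above all TAC libraries, and replicate 4 lay between TAC replicates 2 and 3. The means were 71.9 ± 20.5 (SD, n = 3) and 116 ± 24.0 (SD, n = 4). The log2 fold change was 0.70 with a standard error of 0.24 (unadjusted p = 0.0196 and adjusted p = 0.117 in limma, exact permutation p = 0.0857). With 1 library left out, the log2 fold change ran from 0.49 without TAC replicate 1 (limma adjusted p = 0.364) to 0.91 without TAC replicate 3 (limma adjusted p = 0.0143). Without TAC replicate 3, 53.5% of all genes passed the threshold. An antisense gene, Gm13601, shares 168 exon bases with Xirp2 and was at 21.5, 30.7 and 76.3 FPKM in TAC and at 131, 122, 99.1 and 73.6 FPKM in TAC + EMPA, in the same order of libraries within the TAC + EMPA group.

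Fhl1 encodes a LIM-domain protein that binds titin in the stretch-sensing complex of the sarcomere (chrX:56731787-56793346). It was at 55.2, 50.9 and 126 FPKM in TAC replicates 1 to 3 and at 92.3, 89.3, 93.5 and 80.5 FPKM in TAC + EMPA replicates 1 to 4. The 4 TAC + EMPA libraries lay close together, between TAC replicates 1 and 2 below and TAC replicate 3 above. Mean FPKM was 77.4 ± 42.2 (SD, n = 3) and 88.9 ± 5.88 (SD, n = 4), and the log2 fold change was 0.32 with a standard error of 0.30 (limma adjusted p = 0.449, exact permutation p = 0.343). It depended on each TAC library, at 0.14 without replicate 1, 0.09 without replicate 2 and 0.73 without replicate 3 (limma adjusted p of 0.808, 0.877 and 0.000782). The last of these stands beside 53.5% of all genes called in that setting.

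Ankrd1 encodes cardiac ankyrin repeat protein, which binds titin at the I-band and also acts in the nucleus (chr19:36111961-36120099). It was at 910, 1552 and 1611 FPKM in TAC replicates 1 to 3 and at 1966, 1942, 1976 and 1097 FPKM in TAC + EMPA replicates 1 to 4. TAC + EMPA replicates 1 to 3 lay close together and above every TAC library, and replicate 4 was between TAC replicates 1 and 2. With means of 1358 ± 389 (SD, n = 3) and 1745 ± 432 (SD, n = 4), the log2 fold change was 0.37 with a standard error of 0.28 (limma adjusted p = 0.367, exact permutation p = 0.371). It ran from 0.10 without TAC replicate 1 (limma adjusted p = 0.834) to 0.58 without TAC + EMPA replicate 4 (limma adjusted p = 0.195).

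Rcan1, a feedback inhibitor of calcineurin whose short form is transcribed by the calcineurin target NFAT, was at 29.8, 28.5 and 39.6 FPKM in TAC replicates 1 to 3 (chr16:92391953-92470867). In TAC + EMPA replicates 1 to 4 Rcan1 was at 42.1, 41.6, 31.2 and 33.0 FPKM. The 2 lowest libraries were TAC replicates 1 and 2, and the 2 highest were TAC + EMPA replicates 1 and 2. The means of 32.6 ± 6.06 (SD, n = 3) and 37.0 ± 5.65 (SD, n = 4) differed by 0.18 on the log2 scale with a standard error of 0.16 (limma adjusted p = 0.445, exact permutation p = 0.343). The value is per gene and does not separate the short form from the long one.

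Gdf15, a secreted cytokine of the TGF-beta superfamily induced by cell stress, was the least abundant member (chr8:70629393-70632456). It was at 1.72, 5.09 and 0.773 FPKM in TAC replicates 1 to 3 and at 1.58, 2.05, 1.63 and 0.559 FPKM in TAC + EMPA replicates 1 to 4. TAC replicate 2 was high and TAC + EMPA replicate 4 low. Read from the steps of single-exon genes, these values stand for about 19.4 to 147 fragments. The means were 2.53 ± 2.27 (SD, n = 3) and 1.45 ± 0.632 (SD, n = 4), and the log2 fold change was -0.37 with a standard error of 0.42 (limma adjusted p = 0.536, exact permutation p = 0.457). Without TAC replicate 2 it was 0.12.

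The library that weighed most on the log2 fold change differed between members. Among the 9 members with an estimate in every library, the log2 fold change moved most without TAC replicate 3 in 3 members (Nppa, Fhl1 and Rcan1) and in 2 members each without TAC replicate 1 (Ankrd1 and Xirp2), TAC replicate 2 (Nppb and Gdf15) and TAC + EMPA replicate 4 (Myh7 and Acta1). TAC + EMPA replicate 4 was the lowest TAC + EMPA library with an estimate in 9 of 10 members, and 34.4% of all genes were lowest there. In TAC replicate 3 the value lay closer to the mean of TAC + EMPA than to that of TAC replicates 1 and 2 in 7 of 10 members, the exceptions being Nppa, Myh7 and Acta1. The share of all genes with TAC replicate 3 placed in this way was not computed, so this count cannot be read as particular to the members. Without TAC + EMPA replicate 4, the groups were apart for 3 members (Myh7, Ankrd1 and Xirp2, all higher in TAC + EMPA), beside 31.4% of all genes. Without TAC replicate 3, they were apart for 5 members, Fhl1, Xirp2 and Rcan1 higher and Nppb and Myh6 lower in TAC + EMPA, beside 66.9% of all genes. With library weights in limma, 2 members passed the adjusted threshold (Fhl1 and Xirp2), beside 47.3% of all genes. With TAC replicate 3 and TAC + EMPA replicate 4 both left out, 4 members passed the adjusted threshold in limma, with log2 fold changes of 0.91 for Myh7 (adjusted p = 0.0214), 0.72 for Ankrd1 (0.0442), 0.78 for Fhl1 (0.0009) and 1.04 for Xirp2 (0.00602). That setting was chosen after the data had been seen, and it also called 3761 genes higher and 2957 lower, 54.2% of all genes.

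**Figure D3:**
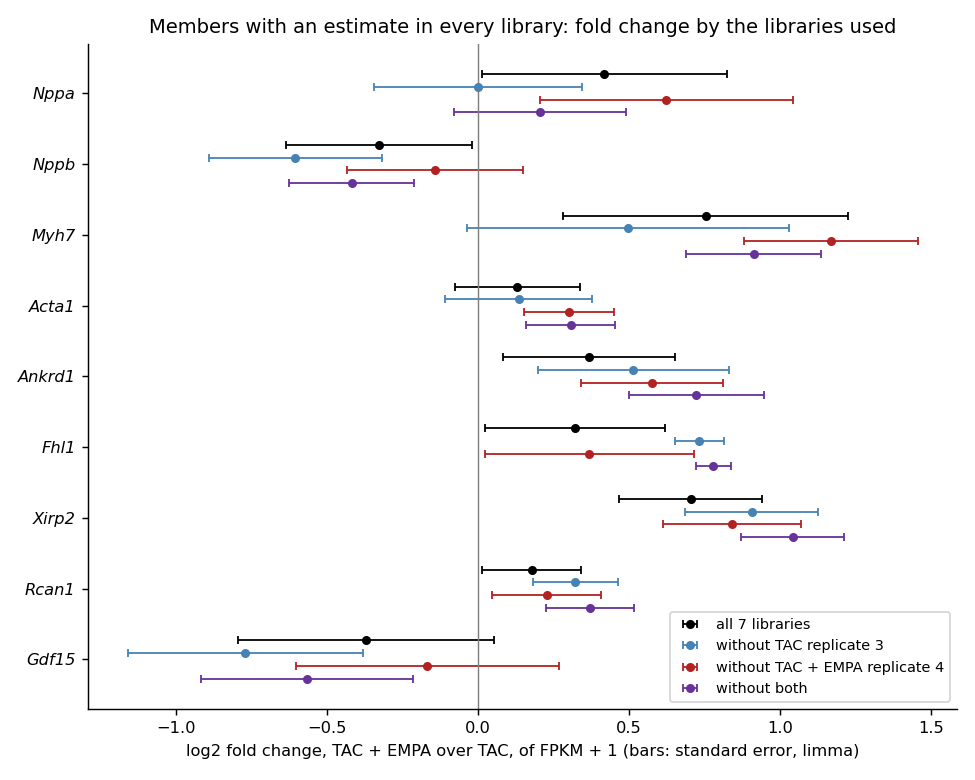
Log2 fold change of TAC + EMPA over TAC on the log2(FPKM + 1) scale for the 9 members with an estimate in every library, with the standard error from limma as bars, for all 7 libraries and with TAC replicate 3, TAC + EMPA replicate 4 or both left out (colours). Nppa moves from 0.42 to 0.00 without TAC replicate 3, Myh7 from 0.75 to 1.17 without TAC + EMPA replicate 4, and Fhl1 from 0.32 to 0.73 without TAC replicate 3.

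All 10 cardiomyocyte markers were detected, with a summed FPKM of 67676 to 81630 in TAC and of 64572 to 72479 in TAC + EMPA, where the lost Myh6 value counted as 0. The libraries differed in other measures. Of the 12 skeletal muscle markers, 10 were highest in TAC + EMPA replicate 4, the exceptions being Ckm and Myl1, which the other libraries also held at 1509 to 2346 and 64.2 to 118 FPKM. In that library Mylpf was at 142 FPKM, and at 2.58 to 8.77 FPKM in the other 6 libraries, and Tnnt3 was at 69.2 FPKM beside 0.334 to 2.80 FPKM. TAC + EMPA replicate 4 was also highest for 9 of 10 hepatocyte markers (summed FPKM 122, beside 35.5 to 76.0 elsewhere) and 5 of 6 smooth muscle markers (250, beside 113 to 136 in the other TAC + EMPA libraries and 110 to 235 in TAC). Acta1, the actin of skeletal muscle, was at its lowest in that library. The summed FPKM of 10 endothelial markers was 705, 849 and 403 in TAC replicates 1 to 3 and 373 to 402 in TAC + EMPA, so TAC replicate 3 was beside the TAC + EMPA libraries in this measure. The sum of the 10 fibroblast markers was 714 to 802 in TAC and 565 to 731 in TAC + EMPA. In whole tissue, fewer cells of a type and less RNA for each cell cannot be told apart. The part of these measures in the members' values was not tested.

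Long transcripts were low in TAC replicates 1 and 2. The 1604 tested genes with a longest transcript over 6000 bases had a median deviation from their own mean of -0.19 and -0.14 on the log2 scale in these 2 libraries and of 0.03 to 0.14 in the other 5. Genes under 1500 bases (2163) had medians of 0.20 and 0.18 in TAC replicates 1 and 2 and of -0.12 to -0.07 in the others. Xirp2 (11979 bases), Myh7 (6230) and Myh6 (6113) are long, and Nppb (781), Nppa (865) and Acta1 (1446) are short. Myh6 ran against the long genes, with its highest FPKM in TAC replicates 1 and 2. The part of transcript length in the members' values was not tested.

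**Figure D4:**
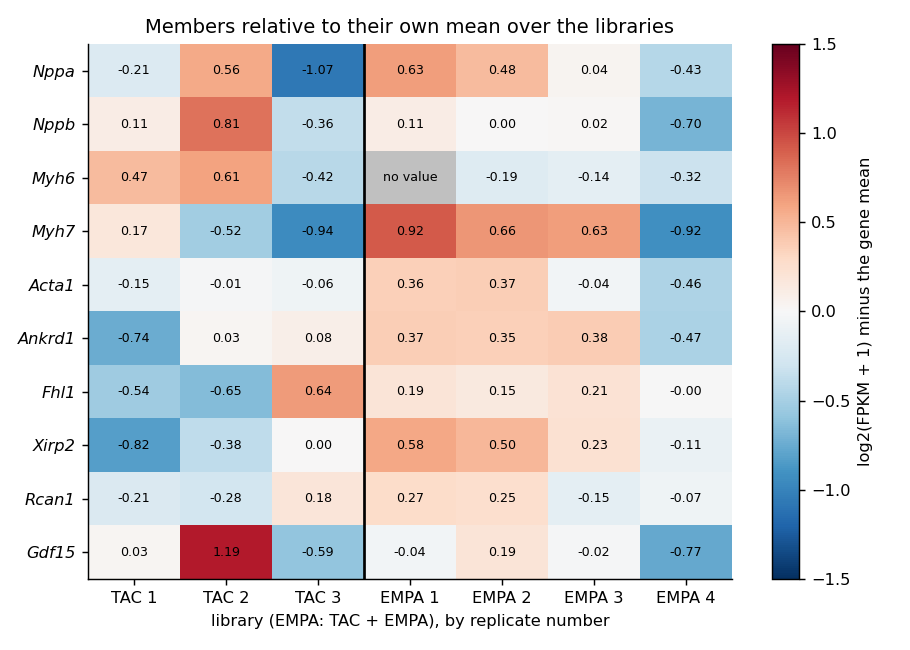
Log2(FPKM + 1) of each member minus its own mean over the libraries with an estimate, for the 3 TAC and 4 TAC + EMPA libraries (blue below and red above the mean, the value printed in each cell, grey where the estimate was lost). TAC + EMPA replicate 4 is below the mean in every row, by less than 0.01 in Fhl1, and Gdf15 in TAC replicate 2 is the highest cell at 1.19.

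The members did not follow 1 shared profile over the 7 libraries. The closest pair by root mean square difference of centred log2(FPKM + 1) was Gdf15 and Nppb (0.20), followed by Acta1 and Rcan1 (0.21) and Ankrd1 and Xirp2 (0.24). The distance is not scaled to how far a gene varied. The root mean square of the Rcan1 profile itself was also 0.21, so its nearness to Acta1 does not show a shared profile. Over all genes tested, the nearest profile to Nppa was that of its antisense partner Gm13054 (0.16), to Nppb that of Mfap4, a microfibril-associated matrix protein (0.10), and to Myh7 that of Abra, an actin-binding protein of striated muscle (0.36). The nearest to Ankrd1 was Bcl6, a transcriptional repressor (0.13), and to Acta1 Fam124a (0.09). The nearest to Fhl1 was Celsr1 (0.06), to Xirp2 2810474O19Rik (0.11), to Rcan1 Rbm4 (0.06) and to Gdf15 Zfp276 (0.15). Only Gdf15 had a member among its 2 nearest genes, and these distances are a description over 7 libraries.

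Genes that work with the members were read from lists, and none of their genes passed the adjusted threshold in limma. The counts in the lists use an unadjusted p under 0.05, by which 19.0% of all genes were higher and 14.7% lower. Of 9 natriuretic peptide partners tested, 3 were higher and 3 lower by that unadjusted threshold, with a median log2 fold change of 0.29. Corin, the protease that cleaves the Nppa precursor, was at 14.8 to 37.4 FPKM in TAC and at 43.3 to 49.8 FPKM in TAC + EMPA (log2 fold change 1.13, SE 0.30, limma adjusted p = 0.115). Furin, which processes the Nppb precursor, was at 16.5 to 34.5 and at 35.9 to 54.5 FPKM, and Pde2a, a phosphodiesterase activated by cyclic GMP, was at 22.9 to 45.2 and at 19.4 to 21.9 FPKM. These 3 were named for the smallest p-values of the list. The groups were apart in them and in no other of the 9 tested, beside 22.3% of all genes. Npr1, the receptor whose cyclic GMP signal Nppa and Nppb drive, was at 6.35 to 16.5 FPKM in TAC and at 5.71 to 7.80 FPKM in TAC + EMPA, and it was named after its value was seen.

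Among 14 further sarcomere isoform genes, 2 were higher and 1 lower in the same way, and the median was 0.00. Ttn, the giant elastic protein, was at 24.0 to 33.2 FPKM in TAC and at 39.1 to 47.1 FPKM in TAC + EMPA, and Mybpc3, a thick filament regulator, had a log2 fold change of 0.57 (SE 0.20). Myh7b, a myosin heavy chain related to Myh7, went the other way with a log2 fold change of -0.75 (SE 0.31). Of 15 stretch and Z-disc partners, 5 were higher and 2 lower, with a median of 0.44. Des, the muscle intermediate filament, was at 678 to 990 FPKM in TAC and at 1020 to 1345 FPKM in TAC + EMPA. Myot and Nexn, both actin-binding Z-disc proteins, had log2 fold changes of 1.03 each (SE 0.25 and 0.33).

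Of 26 genes of calcineurin and hypertrophic transcription, 12 were higher and 1 lower without adjustment, with a median of 0.42. Rcan2, a paralog of Rcan1, was at 74.9 to 131 FPKM in TAC and at 139 to 154 FPKM in TAC + EMPA, and Camk2d, the main cardiac calmodulin kinase, was at 16.4 to 57.0 and at 59.4 to 80.5 FPKM. Rcan3, the remaining paralog, was at 3.30 to 4.16 FPKM in TAC and 2.26 to 2.90 FPKM in TAC + EMPA. The largest median of the 8 lists, 0.78, was that of 15 adult cardiomyocyte genes known to fall in hypertrophy, of which 11 were higher and 0 lower. Their summed FPKM was 5891, 5344 and 8664 in TAC replicates 1 to 3 and 8607 to 9038 in TAC + EMPA. TAC replicate 3 thus lay within the TAC + EMPA range, and TAC replicates 1 and 2 lay below it. The part of transcript length in this list was not tested. Ryr2, the calcium release channel, was at 25.4, 23.7 and 82.2 FPKM in TAC replicates 1 to 3 and at 102 to 117 FPKM in TAC + EMPA. Ppara, a regulator of fatty acid oxidation, had a log2 fold change of 1.75 (SE 0.47), and Cpt1b, which admits fatty acids to mitochondria, one of 0.87 (SE 0.30). In each of the 3 genes TAC replicate 3 was at least 2 times as high as the other TAC libraries, whereas Nppa, Myh6 and Myh7 were lowest there among the TAC libraries.

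The integrated stress response genes that accompany Gdf15 induction showed 2 higher and 1 lower of 13, with a median of -0.15. Chac1 was at 3.08 to 4.59 FPKM in TAC and at 5.61 to 7.75 FPKM in TAC + EMPA, Trib3 was at 1.74 to 3.07 and at 1.17 to 1.62 FPKM, and Atf3, a stress-induced transcription factor, had a log2 fold change of 0.75 (SE 0.26). Of 13 secreted and matrix stress genes, 2 were higher, among them Spp1, and 1 was lower (Tgfb1), with a median of 0.07. Of 9 immediate early genes, 2 were higher (Myc and Atf3, the latter in both lists) and 1 lower (Ier2), also with a median of 0.07.

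**Figure D5:**
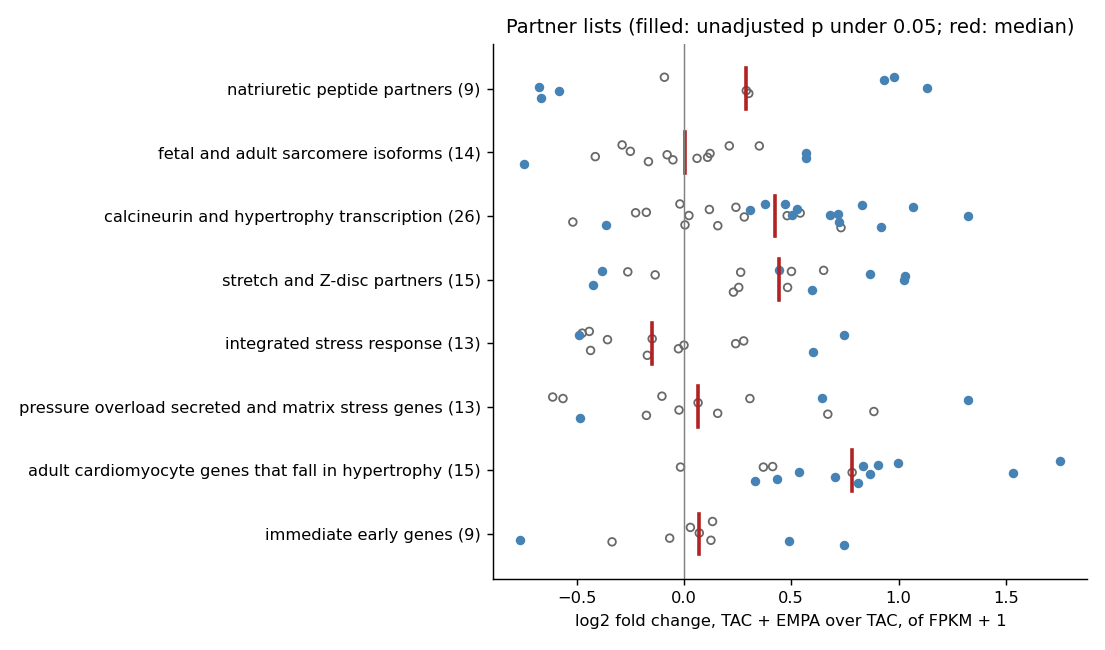
Log2 fold change of TAC + EMPA over TAC on the log2(FPKM + 1) scale for the tested genes of the 8 partner lists (number in parentheses; points are genes, filled at an unadjusted limma p under 0.05; red bars are medians; vertical scatter is for display). Medians run from -0.15 for the integrated stress response to 0.78 for adult cardiomyocyte genes, and no gene passed the adjusted threshold.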

How the data were processed

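Stranded libraries of messenger RNA from heart were sequenced, 3 of TAC and 4 of TAC + EMPA, and the labels gave group and replicate. Per the submitters' processing notes, TopHat2 2.0.13 and Cuffdiff of Cufflinks 2.2.1 were used with GRCm38. The authors deposited 1 FPKM value for each gene and library, from which fragments had been scaled by transcript length and library size. Their columns of group means, fold changes, test statistics, p-values and q-values and the tables of enriched terms were not used. Counts were not used, and no count model was fitted. FPKM steps of single-exon genes gave relative depths from 1 to 2.28, with at least 96.4% of these values within 0.15 of a whole fragment. Total depth is unknown. In all, 41 rows had the status HIDATA and 2 FAIL, and 26 symbols were restored from the gene ID.

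On the log2(FPKM + 1) scale, TAC + EMPA was compared with TAC over the 12391 genes whose FPKM averaged 1 or more, using limma 3.58.1 (R 4.3.3), two-sided, with a trended prior variance and Benjamini-Hochberg adjustment over all these genes (threshold 0.05). Fold changes on this scale understate the change of low genes. Single members and 2 ratios were also compared by exact two-sided permutation tests over libraries, whose smallest possible p over 35 splits is 0.0286. For Myh6 and the Myh7 to Myh6 ratio, with 20 splits of 3 against 3 libraries, it is 0.1. These tests were not adjusted over the members. The limma fit was tested on simulated data, in which the spread of each gene was capped at the median spread of these data. The permutation test was checked on a separated and a flat set of fixed values.

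The members, lists and tests were chosen with earlier results of these data known. Named genes were all members, up to 3 genes of smallest p-value in each partner list, the nearest profile to each member with an estimate in every library, and Actc1. Marker genes of single cell types, overlapping antisense genes and Npr1 were named outside this rule, after their values were seen. The results of some genes under this rule are not reported here. Alternatives covered the pseudocount, the filter, scaling, the replicate block, the variance prior, library weights, lost estimates and each library left out. Promoter windows came from RefSeq (GRCm38.p6), gene positions and exons from GENCODE release M21. Python 3.11.15, pandas 2.3.3 and matplotlib 3.10.9 were used for tables and figures.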

Additional observations from a re-analysis of the deposited data

Results flagged for a closer look

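In the 4 TAC + EMPA libraries, each of the 9 members with 4 estimates, each of 17 summed lists and 2 ratios were examined for 1 library far from the rest, by the gap to its nearest neighbour as a share of the whole range on a log2 scale. Of 28 such values, 4 were over the limit that Dixon's test sets for 4 libraries, and chance sets apart about 5% of such groups. The 28 values come from the same 4 libraries, and some lists share genes. They are therefore not independent, and their count cannot be weighed against that 5%. The low library was TAC + EMPA replicate 4 in each of the 4. The share was 0.971 for Ankrd1, where replicate 4 was at 1097 FPKM and the next at 1942. The share was 0.861 for Nppb (230 FPKM, the next at 374) and 0.844 for Myh7 (174 FPKM, the next at 512). For the summed FPKM of the integrated stress response genes the share was 0.908, with 168 in replicate 4 and 227 to 234 in the other TAC + EMPA libraries.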

How the results depend on the processing

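Of 179 limma log2 fold changes of the members under the alternatives, 170 kept their direction and side of the threshold, 8 passed the threshold newly and 1 changed sign, that of Gdf15 (from -0.77 to 0.12 with 1 library left out, in limma and in the exact test, positive without TAC replicate 2). The 179 include Myh6. Wherever its lost 0 was kept in the fit, that 0 set the negative sign, so those Myh6 values do not show that a result held. Fhl1 and Xirp2 passed with library weights (log2 fold changes of 0.68 and 0.97, limma adjusted p of 0.00846 and 0.0106) and without TAC replicate 3 (0.73 and 0.91). No gene was called over all libraries, where limma gave 2349 higher and 1827 lower before adjustment. Counts of calls were 3310 higher and 2551 lower with library weights, which gave TAC replicate 3 the lowest weight (0.121), and 2 lower with no filter. Leaving out 1 library gave 0 to 3694 higher and 0 to 2930 lower, the highest without TAC replicate 3, and leaving out both TAC replicate 3 and TAC + EMPA replicate 4 gave 3761 and 2957. The cause was not tested. The Acta1 to Actc1 difference ranged from -0.219 to 0.0716 and the Myh7 to Myh6 difference from 0.74 to 1.47 with 1 library left out.

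Correlations of same-numbered deviations were 0.10, 0.08 and -0.03, and those of differently numbered libraries ran from -0.17 to 0.06. TAC replicate 1 and TAC + EMPA replicate 1 also had the greatest relative depths (2.28 and 2.27). With so few libraries, these values cannot decide whether libraries of the same number were paired. With the replicate number as a block, 0 genes were called higher and 0 lower, the Myh7 log2 fold change was 1.17, the Myh7 to Myh6 difference was 1.64 and the Acta1 to Actc1 difference was 0.07. The block fit leaves out TAC + EMPA replicate 4 in effect, since no TAC library has its number. Total depth is unknown, and precision is limited by 3 and 4 libraries. Among the 9 members with an estimate in every library, median centring and quantile normalization changed no sign. Quantile normalization moved Acta1 from 0.13 to 0.51, Rcan1 from 0.18 to 0.12 and Nppb from -0.33 to -0.16 (limma adjusted p of 0.188, 0.596 and 0.683).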
